A study of Mus musculus with 6 samples.

Results

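The 10 genes analysed here supply peptides to MHC class I molecules and load them there. They were followed in AtT-20 cells, a line derived from a mouse tumour of pituitary corticotrophs, after depletion of Dnmt1, the enzyme that copies DNA methylation onto newly replicated strands. The genes were Tap1, Tap2, Tapbp, Tapbpl, Psmb8, Psmb9, Psmb10, Psme1, Psme2 and B2m. They were selected on earlier results of these same arrays, and the values that chose them were their siDNMT1 against siNT differences by repeat, so those differences are given below as a description with no test. Of the 10 genes, 9 had at least 1 probe set that the array annotation maps to that symbol alone, which came to 16 of the 45101 probe sets of the array. For Psme2 no such probe set was found, and it is given no value. Of the 16 probe sets, 12 were bright enough to be tested, among 27022 tested in all, and they covered all 9 genes. The 4 dim ones were 3 further probe sets of Tap1 and 1 of Tapbpl.

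The siDNMT1 group was AtT-20 cells given 20 nM of an siRNA against Dnmt1 repeatedly until day 8, and the siNT group was AtT-20 cells given 20 nM of a control siRNA labelled NT on the same schedule. Total RNA was hybridised to 1 Affymetrix array per sample, and the labels describe 3 independent repeats, which gave 3 siDNMT1 arrays and 3 siNT arrays that share the numbers 1 to 3. All cells came from 1 tumour line, no untreated cells were among the samples used here, and the labels name 1 knockdown reagent without giving its sequence. The p-values below therefore measure the spread between rounds of treatment of 1 line.

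Class I molecules carry short peptides to the cell surface for inspection by CD8+ T cells. Proteasomes cut cytosolic proteins into peptides, the TAP transporter moves these into the endoplasmic reticulum, and tapasin holds an empty class I heavy chain and its light chain B2m next to the transporter until a peptide is bound. Interferon-gamma is known to raise most of these genes together, including catalytic subunits that replace the standard ones in the immunoproteasome and the PA28 activator that caps it. Pituitary corticotrophs make pro-opiomelanocortin and are not specialised for antigen presentation.

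Dnmt1 transcript checked the labels. The brightest Dnmt1 probe set read 214, 142 and 301 in siDNMT1 repeats 1, 2 and 3, against 541, 701 and 619 in siNT repeats 1, 2 and 3, and the groups did not overlap. The siDNMT1 arrays held 39.6%, 20.2% and 48.6% of the signal of the siNT array of the same repeat, so the knockdown was deepest in repeat 2. The log2 difference was -1.54 (SE 0.24, n = 3 each), with limma adjusted p = 0.151 without the repeat number and 0.0211 with it as a block. In an exact two-sided permutation test p was 0.100, the smallest that 3 arrays against 3 can give. Each is a scaled signal, the deposited intensity after every array was brought to the same median log2 value, and every log2 difference is siDNMT1 minus siNT of log2(scaled signal + 5.29).

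The labelled cell type was present in its markers. All 7 corticotroph markers measured, among them Pomc, Tbx19, Neurod1 and Pcsk1, lay above the brightness filter, and their summed signal was 9055 to 13960 on the siDNMT1 arrays and 10776 to 14247 on the siNT arrays. Summed leukocyte markers were 519 to 576 on the siDNMT1 arrays and 526 to 627 on the siNT arrays, with 5 of 7 measured markers above the filter. Below the filter were Ptprc, the pan-leukocyte marker, at means of 6.71 on the siDNMT1 arrays and 9.92 on the siNT arrays, and the myeloid marker Itgam, at 19.3 on the siDNMT1 arrays and 7.57 on the siNT arrays, with no overlap of the groups. Dendritic cell markers summed to 114 to 126 on the siDNMT1 arrays and 69.4 to 129 on the siNT arrays, with 3 of 5 above the filter. Fibroblast markers summed to 145 to 197 on the siDNMT1 arrays and 124 to 153 on the siNT arrays, with 5 of 5 above the filter, and endothelial markers to 93.3 to 108 on the siDNMT1 arrays and 55.9 to 93.5 on the siNT arrays, with 2 of 4 above it. In each of the 5 lists the sums overlapped, narrowly for endothelial markers (lowest 93.3 in siDNMT1, highest 93.5 in siNT), and no marker was at 0. Single markers differed more: Pdgfra by 1.26 (fibroblast list, higher in all 3 repeats), Flt3 by 0.88 (dendritic list), Cd68 by 0.28 and Cd3e by -0.75 (leukocyte list), and the corticotroph marker Nr4a1 by -0.62, without overlap, in log2, siDNMT1 minus siNT. The part of other cells in the results below was not tested. In bulk RNA fewer cells of a type and less RNA per cell cannot be told apart.

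The start regions of 8 of the 10 genes are in a RefSeq promoter table of build GRCm38.p6, which gives 250 bases before to 50 bases after each start. They are shown because the experiment lowered the enzyme that keeps CpG sites methylated, although methylation itself was not measured on these arrays. Tap2 and Tapbpl are not in that table. The sequences below run 5′ to 3′ on the strand of the gene, and the capitals mark CpG dinucleotides, the sites Dnmt1 acts on. The Tap1 window is chr17:34187306-34187605 on the plus strand, that of Tapbp chr17:33919228-33919527 (plus), that of Psme1 chr14:55578244-55578543 (plus), that of B2m chr2:122147437-122147736 (plus) and that of Psmb10 chr8:105938343-105938642 (minus).
Tap1: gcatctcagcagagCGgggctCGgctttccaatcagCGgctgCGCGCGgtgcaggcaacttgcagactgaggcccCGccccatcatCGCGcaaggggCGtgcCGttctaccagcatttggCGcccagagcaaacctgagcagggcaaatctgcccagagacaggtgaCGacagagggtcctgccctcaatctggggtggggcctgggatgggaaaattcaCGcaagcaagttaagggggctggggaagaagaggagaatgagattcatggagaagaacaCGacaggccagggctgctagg
Tapbp: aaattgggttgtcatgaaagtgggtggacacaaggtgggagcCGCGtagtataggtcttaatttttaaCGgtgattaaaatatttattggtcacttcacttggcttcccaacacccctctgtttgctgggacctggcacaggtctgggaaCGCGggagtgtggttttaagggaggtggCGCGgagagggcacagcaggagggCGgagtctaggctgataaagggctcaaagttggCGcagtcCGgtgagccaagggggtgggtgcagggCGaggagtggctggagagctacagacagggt
Psme1: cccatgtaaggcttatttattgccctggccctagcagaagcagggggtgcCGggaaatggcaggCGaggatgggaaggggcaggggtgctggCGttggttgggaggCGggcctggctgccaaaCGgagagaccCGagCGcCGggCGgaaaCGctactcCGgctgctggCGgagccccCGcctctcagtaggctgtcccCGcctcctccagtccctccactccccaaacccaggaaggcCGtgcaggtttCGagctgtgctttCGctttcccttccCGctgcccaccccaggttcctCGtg
B2m: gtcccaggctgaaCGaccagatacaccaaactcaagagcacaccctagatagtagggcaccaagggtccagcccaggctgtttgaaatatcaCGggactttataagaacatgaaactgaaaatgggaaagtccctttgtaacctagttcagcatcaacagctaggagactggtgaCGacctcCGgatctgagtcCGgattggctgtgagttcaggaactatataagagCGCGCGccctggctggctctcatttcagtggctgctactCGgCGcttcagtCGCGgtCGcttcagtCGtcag
Psmb10: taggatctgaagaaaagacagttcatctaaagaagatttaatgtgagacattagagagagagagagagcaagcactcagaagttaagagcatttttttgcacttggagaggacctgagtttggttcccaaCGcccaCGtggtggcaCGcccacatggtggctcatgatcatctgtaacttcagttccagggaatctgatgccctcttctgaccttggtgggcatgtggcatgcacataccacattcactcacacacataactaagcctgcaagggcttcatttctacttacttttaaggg

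The windows differ most in how many CpG sites they hold. Psme1 had 19 in 300 bases at 66.3% GC, Psmb9 17 at 62.0% GC, Tap1 15 at 61.0% GC, B2m 14 at 52.3% GC, and Tapbp and Psmb8 11 each at 55.0% and 55.3% GC. Psmb10 had 3 CpG sites at 45.7% GC. Over all 27025 promoters of the table the median was 7 CpG sites (25th percentile 3, 75th percentile 21) and 52.7% GC, so none of the 8 genes starts in a window above the upper quartile. For Psme2, 2 starts are listed, with 11 and 12 CpG sites. Tap1 and Psmb9 are transcribed away from each other from starts 226 bases apart, and 275 bases of the Tap1 window printed above are the Psmb9 window read on the other strand.

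Both strands of each window were searched for 4 motifs known from interferon- and NF-kappa-B-responsive genes and from unmethylated promoters. The interferon regulatory factor motif GAAANNGAA was found in B2m at bases -139 to -131 from the start, as GAAACTGAA, and in Psme1 at bases 11 to 19 after it on the minus strand, among 8.57% of all promoters. The gamma-activated site TTCNNNGAA was found in Psmb8 at bases -97 to -89, as TTCCCAGAA, among 8.47% of all promoters, and an NF-kappa-B consensus in B2m at bases -126 to -117 on the minus strand, among 8.18%. The GC box GGGCGG, which 35.9% of all promoters hold, was found in Tap1, Tapbp, Psmb9, Psme1 and Psme2. These matches are letters in a window and say nothing of binding in these cells.

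Tap1 and Tap2 are the 2 subunits of the peptide transporter, and neither works without its partner. Tap1, at chr17:34187556-34197225 in GRCm38.p6, the build of all coordinates here, had scaled signals of 94.7, 134 and 132 in siDNMT1 repeats 1, 2 and 3, against 89.5, 111 and 96.2 in siNT repeats 1, 2 and 3. The siDNMT1 value was the higher one in every repeat, but the groups overlapped because siDNMT1 repeat 1 lay below 2 siNT arrays. On the log2 scale the difference was 0.26 (SE 0.21), and by repeat 0.08, 0.26 and 0.43. It was 0.41 without siDNMT1 repeat 1, and 0.17 without siDNMT1 repeat 2 or without repeat 3 in the fit with the block. The 3 dim Tap1 probe sets lay near the background of the array and differed by 0.02, 0.57 and -0.13.

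Tap2, at chr17:34204479-34216321, had 199.8, 185 and 180.1 in siDNMT1 repeats 1, 2 and 3, against 109.6, 155 and 159 in siNT repeats 1, 2 and 3. All siDNMT1 values lay above all siNT values, and the siDNMT1 arrays were much closer to each other (188 ± 10.3, SD, n = 3) than the siNT arrays (141 ± 27.7, SD, n = 3). This gave a log2 difference of 0.42 (SE 0.20). Repeat 1, with its low siNT value, differed by 0.84, and repeats 2 and 3 by 0.24 and 0.17. Without repeat 1 the difference was 0.21, and without its siNT array alone 0.25, so the size of this difference rests on repeat 1.

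Tapbp encodes tapasin, the bridge between the transporter and the class I heavy chain, and Tapbpl its relative TAPBPR, which edits the bound peptides away from the transporter. The brightest Tapbp probe set read 1930, 1549 and 1128 in siDNMT1 repeats 1, 2 and 3, against 766, 1026 and 737 in siNT repeats 1, 2 and 3. The groups did not overlap, and the means were 1535 ± 401 in siDNMT1 and 843 ± 159 in siNT (SD, n = 3), a fold of 1.79. The log2 difference, 0.84 (SE 0.21), was the largest among the 9 genes, with 1.33, 0.59 and 0.61 by repeat. Among the 13477 named genes tested, 99.0% had a lower difference than Tapbp.

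A second, dimmer Tapbp probe set gave a smaller difference. It read 259, 171 and 189 in siDNMT1 repeats 1, 2 and 3, against 141, 149 and 181 in siNT repeats 1, 2 and 3. Here siDNMT1 was again the higher one in every repeat, but the groups overlapped. The log2 difference was 0.37 (SE 0.21), of which repeat 1 gave 0.85 and repeats 2 and 3 gave 0.19 and 0.06. The 2 probe sets share a direction and differ in size, and which of them stands closer to the transcript level was not tested.

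Tapbpl, which lies on another chromosome at chr6:125223927-125231860, did not share that direction. It read 118, 108 and 117 in siDNMT1 repeats 1, 2 and 3, against 104, 134 and 126 in siNT repeats 1, 2 and 3. The siDNMT1 value was higher in repeat 1 and lower in the other repeats, and the groups overlapped. The log2 difference was -0.08 (SE 0.19), close to the median of all named genes, and its dim probe set gave 0.09.

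**Figure D1:**
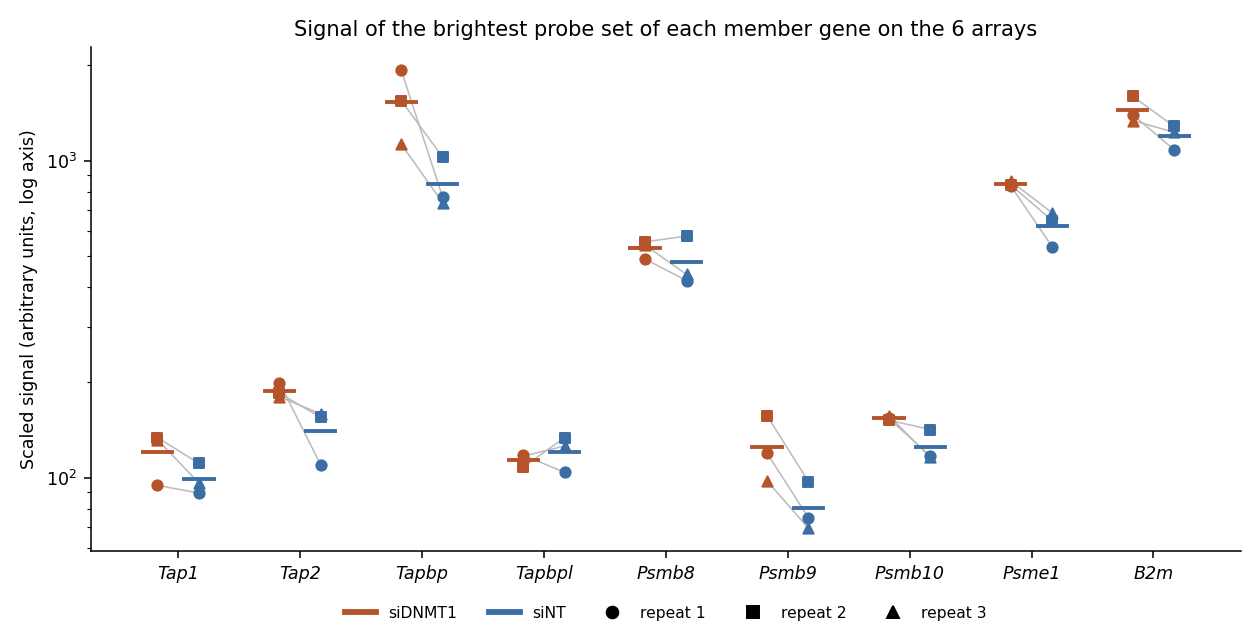
Scaled signal (arbitrary units, log axis) of the brightest probe set of each of the 9 measured genes, with siDNMT1 arrays in red left of siNT arrays in blue. Points are single arrays, shaped by repeat and joined within a repeat, and horizontal bars are group means. Tapbp, at 1535 in siDNMT1 and 843 in siNT, shows the widest gap, and for Tapbpl the lines run in different directions.

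Psmb8, Psmb9 and Psmb10 encode the catalytic subunits that replace the standard ones in the immunoproteasome and shift cutting toward peptides that fit class I grooves. Psmb9, at chr17:34182030-34187330, read 119.6, 157 and 97.8 in siDNMT1 repeats 1, 2 and 3, against 74.8, 97.3 and 69.3 in siNT repeats 1, 2 and 3. Each group had its highest value in repeat 2, the siDNMT1 value was higher in every repeat by a like amount, and the groups did not overlap, though by little. The means were 125 ± 29.7 in siDNMT1 and 80.5 ± 14.8 in siNT (SD, n = 3). Its log2 difference was 0.59 (SE 0.23), and by repeat 0.64, 0.66 and 0.47, the evenest of the 9 genes.

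Psmb10, at chr8:105935728-105938392, read 154, 152 and 157 in siDNMT1 repeats 1, 2 and 3, against 117, 142 and 116 in siNT repeats 1, 2 and 3. All siDNMT1 values lay above all siNT values, and they spanned a narrower range. Psmb10 thus differed by 0.29 on the log2 scale (SE 0.18), with 0.38, 0.09 and 0.41 by repeat. Psmb10 is the gene with only 3 CpG sites in the window printed above.

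Psmb8, at chr17:34198195-34201454, differed least of the 3. It read 489.6, 555 and 542 in siDNMT1 repeats 1, 2 and 3, against 419, 579 and 438 in siNT repeats 1, 2 and 3. The siDNMT1 value was lower in repeat 2, and the groups overlapped. The log2 difference was 0.16 (SE 0.17), with 0.22, -0.06 and 0.30 by repeat, and it ranged from 0.07 without siNT repeat 1 to 0.30 without siNT repeat 2. A dimmer probe set whose name marks possible cross-hybridisation gave -0.01 (SE 0.23).

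Each inducible subunit takes the place of 1 standard subunit. In the ratio of the 2 signals on the same array, a single scale factor per array cancels except through the pseudocount. A scale that changes with brightness does not cancel, and its part in these ratios was not tested. The standard subunits were the brighter ones. Mean signals were 1673 for Psmb6 against 103 for Psmb9, and 1803 for Psmb5 against 504 for Psmb8. They were 4620 for Psmb7 against 139.6 for Psmb10. The log2 ratio of Psmb9 to Psmb6 averaged -3.67 ± 0.38 in siDNMT1 and -4.35 ± 0.28 in siNT (SD, n = 3), a difference of 0.68 ± 0.09 (SD over repeats, n = 3). The ratio of Psmb10 to Psmb7 differed by 0.53 ± 0.11, and that of Psmb8 to Psmb5 by 0.24 ± 0.13 (SD over repeats, n = 3). All 9 repeat-wise ratio differences were positive, from 0.14 for Psmb8 to Psmb5 in repeat 2 to 0.77 for Psmb9 to Psmb6 in repeat 2. Since Psmb8, Psmb9 and Psmb10 were chosen on the same contrast, these ratios are a description. Because probes differ in brightness for equal RNA, the ratios do not give the share of immunoproteasomes.

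The standard subunits were not among the chosen genes and were tested, although their list too was drawn up with earlier results of these data known. Psmb5, Psmb6 and Psmb7 encode the chymotrypsin-like, caspase-like and trypsin-like activities of the constitutive proteasome. Psmb5 averaged 1749 ± 106 in siDNMT1 and 1856 ± 106 in siNT, a log2 difference of -0.09 (SE 0.13). Psmb6 differed by -0.09 (SE 0.13) and Psmb7 by -0.23 (SE 0.12), and limma called none of the 3 (adjusted p = 1.000 each). The fit without the repeat number called no probe set of the array, so that outcome was fixed beforehand. With the block, limma adjusted p was 0.545 for Psmb7, 0.859 for Psmb6 and 0.865 for Psmb5. All 3 stayed below 0 under each of the 4 scalings tried. The deposited signal of repeat 2 exceeded that of the other repeats by a median log2 of 0.85 at mean signals of 500 to 1000, 0.78 at 1000 to 2000, 0.61 at 2000 to 4000 and 0.32 above 4000. Scale thus differed with brightness, and its part in the differences of bright probe sets such as Psmb7, H2-K1 and H2-D1 was not tested.

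**Figure D2:**
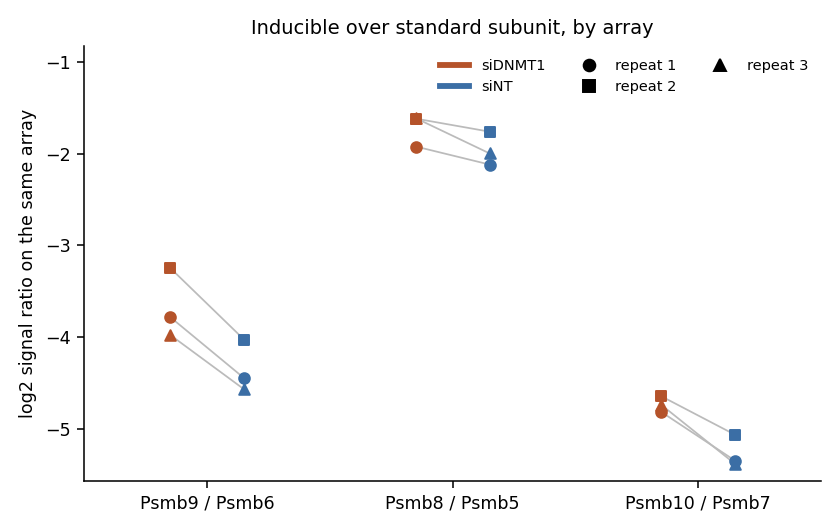
Log2 ratio of the signal of each immunoproteasome subunit to that of the standard subunit it replaces, on each array, with siDNMT1 in red left of siNT in blue and lines joining the arrays of a repeat. In all 3 pairs every line slopes down toward siNT, with mean differences of 0.68 for Psmb9 to Psmb6, 0.24 for Psmb8 to Psmb5 and 0.53 for Psmb10 to Psmb7.

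Psme1 encodes the alpha subunit of PA28, a ring that docks on the proteasome and speeds the release of peptides. It read 833, 839 and 862 in siDNMT1 repeats 1, 2 and 3, against 535, 648 and 685 in siNT repeats 1, 2 and 3. The lowest siDNMT1 value lay well above the highest siNT value, and the siDNMT1 arrays hardly differed among themselves (844 ± 15.3 in siDNMT1, 623 ± 78.2 in siNT, SD, n = 3). In log2 terms the difference was 0.44 (SE 0.15), with 0.63, 0.37 and 0.33 by repeat. Its partner Psme2, the beta subunit, lies close by at chr14:55587440-55591101 and has no value here, because the 1 probe set listed for it is shared with Psme2b. Psme3, which forms another activator found mainly in the nucleus, was no member and differed by 0.06 (SE 0.17) on its brightest probe set. Its other tested probe sets went different ways, at -0.21 (SE 0.21, mean signal 446) and 0.81 (SE 0.46, mean signal 28.9).

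B2m is the light chain that every classical class I molecule needs to fold and reach the surface. Its brightest probe set read 1398, 1596 and 1340 in siDNMT1 repeats 1, 2 and 3, against 1083, 1284 and 1230 in siNT repeats 1, 2 and 3. The groups did not overlap. B2m differed by 0.27 on the log2 scale (SE 0.14), with 0.37, 0.31 and 0.12 by repeat. The other B2m probe set, at a mean of 915 ± 50.7 in siDNMT1 and 781 ± 90.3 in siNT (SD, n = 3), also showed no overlap and gave 0.23 (SE 0.15), so for B2m both probe sets gave differences within 1 SE of each other.

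**Figure D3:**
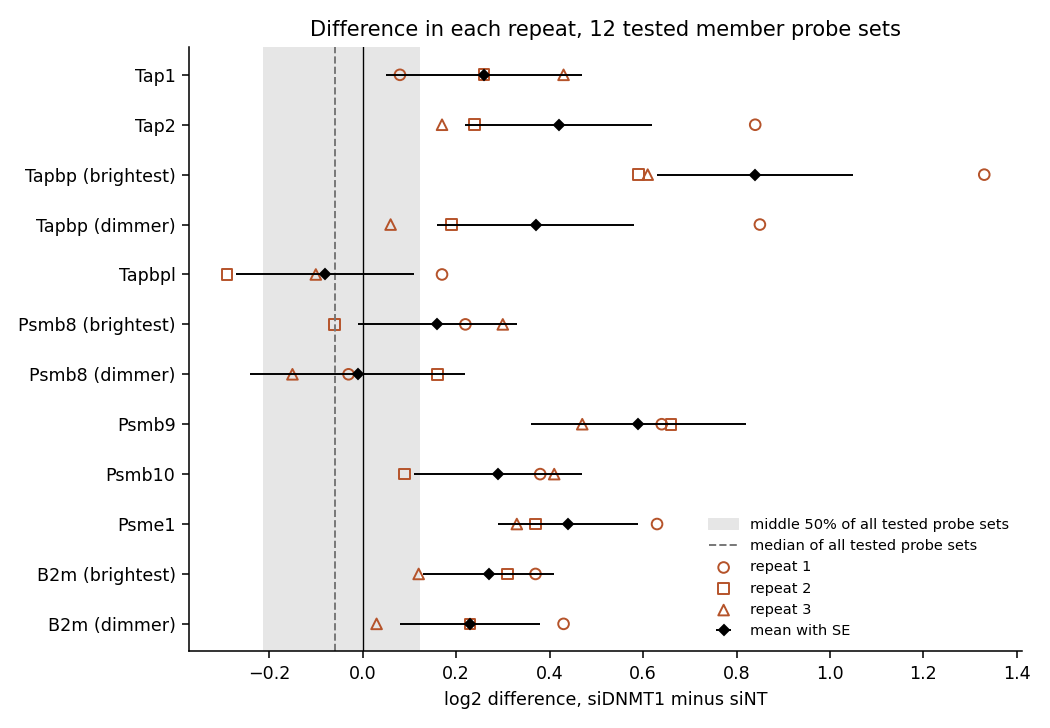
Log2 difference, siDNMT1 minus siNT, of the 12 tested probe sets of the 9 genes. Open symbols are the 3 repeats, black diamonds with bars are means with the standard error of the limma fit, the grey band is the middle 50% of all tested probe sets and the dashed line their median of -0.06. Repeat 1 gives the outermost point for Tap2 and for both Tapbp probe sets, and the 3 points of Psmb9 lie close together.

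Set side by side, 8 of the 9 genes had a positive difference on the brightest probe set, and their median was 0.29, against -0.06 over all 13477 named genes tested. By repeat the median over the 9 genes was 0.38, 0.26 and 0.33, against 0.02, -0.13 and -0.07 over all named genes. Of the 9 genes, 7 were higher in siDNMT1 in all 3 repeats, as were 9.83% of all named genes. In 6 of the 9, Tap2, Tapbp, Psmb9, Psmb10, Psme1 and B2m, all siDNMT1 arrays lay above all siNT arrays, as they did for 2.75% of named genes. These genes were chosen for such differences, so their counts describe the choice and are not evidence of a shift.

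The 12 probe sets of these genes were part of the fit over all tested probe sets, and none passed an adjusted p of 0.05. Because the genes were chosen on this contrast, that outcome is a description and no test of them. In the fit without the repeat number no probe set of the array was called, so none of theirs could be. The limma fit without the repeat number called 0 of 27022 probe sets (0% of them, with 1025 at an unadjusted p under 0.05), and the fit that also took the repeat as a block called 23, or 0.0851%, of which 8 rose and 15 fell in siDNMT1. No probe set of the 9 genes was among the 23.

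For comparison at like brightness, tested probe sets of the whole array had a median difference of -0.07 at signals of 100 to 200, the range of Tap1, Tap2, Tapbpl, Psmb9 and Psmb10, and of -0.08 at 500 to 1000, the range of Psme1 and Psmb8. At 1000 to 2000, the range of Tapbp and B2m, the median was also -0.08. Among the 13477 named genes, 97.1% had a lower difference than Psmb9, 94.9% than Psme1 and 94.2% than Tap2, against 90.1% for Psmb10, 88.7% for B2m, 88.2% for Tap1, 81.0% for Psmb8 and 47.7% for Tapbpl.

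The other genes of the pathway were tested, although their lists were also drawn up with earlier results of these data known. The share of positive differences in each list can be read against 5257 of 13477 named genes. Calls cannot be read in that way. The fit without the repeat number called 0 of 27022 probe sets, so its 0 in any list was fixed beforehand and tests no list. The fit with the block called 23 on the whole array. Of 22 listed class I heavy chain genes, 12 had a probe set and 6 were tested: H2-K1, H2-D1, H2-T3, H2-M3, Mr1 and Hfe. Among them H2-K1 and H2-D1, which bind the peptide, lay close to 0 on their brightest probe sets. H2-K1, a classical heavy chain, read 4058, 2560 and 3182 in siDNMT1 repeats 1, 2 and 3, against 3429, 3087 and 3358 in siNT repeats 1, 2 and 3, and the groups overlapped. Its log2 difference was -0.03 (SE 0.17). H2-D1, the other classical heavy chain, averaged 2214 ± 402 in siDNMT1 and 2222 ± 148 in siNT (SD, n = 3), a difference of -0.02 (SE 0.15). Both signs turned positive with trimmed mean or quantile scaling, at 0.03 to 0.04. Their dimmer probe sets gave higher differences: the tested ones of H2-K1 gave -0.01 to 0.14, and the tested ones of H2-D1 gave 0.48 (SE 0.32), 0.27 (SE 0.19), 0.14, 0.08 and -0.00. On the H2-D1 probe set at 0.27, the signals were 129.9, 144 and 119.8 in siDNMT1 repeats 1, 2 and 3, against 95.8, 117 and 112 in siNT repeats 1, 2 and 3, with no overlap. H2-T3, a nonclassical and dim heavy chain, differed by -0.49 (SE 0.39), with overlapping groups. Heavy chain genes resemble each other closely, so their probe sets may share transcripts. Of the 6 heavy chain genes tested 1 was positive and 5 negative with a median of -0.05, but 4 were positive under trimmed mean or quantile scaling. Limma called 0 in either fit, with 0 at an unadjusted p under 0.05, against 1025 of 27022 probe sets of the array.

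The helpers that fold class I molecules in the endoplasmic reticulum also lay near the rest of the array. Of 11 tested, 1 was positive and 10 negative with a median of -0.11, and 5 of 11 were positive under trimmed mean or quantile scaling. Calr, the chaperone calreticulin of the loading complex, averaged 2929 ± 359 in siDNMT1 and 3348 ± 143 in siNT (SD, n = 3), a difference of -0.20 (SE 0.13). Canx, its membrane-bound relative, differed by -0.18 (SE 0.27), Pdia3, the oxidoreductase bound to tapasin, by -0.11 (SE 0.20), and Hspa5, the general chaperone BiP, by -0.29 (SE 0.18). Sec61a1, the channel through which new heavy chains enter, was the positive one at 0.24 (SE 0.16). Erap1, which trims peptides to their final length, was too dim to be tested. Limma called 0 of the 11 in either fit, with 0 at an unadjusted p under 0.05, against 1025 of 27022 probe sets of the array.

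The rest of the proteasome lay mostly below 0. Of 12 other subunits of the 20S core, 2 were positive and 10 negative with a median of -0.07, and under quantile scaling 7 of 12 were positive with a median of 0.02. Of 20 subunits of the 19S regulator, 3 were positive and 17 negative with a median of -0.05, and under quantile scaling 12 of 20 were positive. Psmd1, a scaffold of the 19S base, differed by -0.33 (SE 0.21). Cytosolic peptidases and proteasome regulators had 2 positive and 7 negative of 9, with a median of -0.20, including Pomp, the assembly factor of the core, at -0.24 (SE 0.15), and Blmh, a peptide-trimming hydrolase, at -0.26 (SE 0.19). Limma called 0 genes of these 3 lists in either fit, with 0 at an unadjusted p under 0.05, against 1025 of 27022 probe sets of the array. With so few calls on the whole array, these zeros do not show that the lists were unchanged.

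The known transcriptional regulators of class I genes had the highest median of the 9 lists of other genes. Of 15 tested, 9 were positive and 6 negative with a median of 0.15, and 12 of 15 were positive under each of the other 3 scalings. Limma called 0 in either fit, with 3 at an unadjusted p under 0.05, all positive, against 1025 of 27022 probe sets of the array. In all 3 repeats 6 of the 15 were higher in siDNMT1, as were 9.83% of all named genes, and 2 were lower. The 2 lower ones were Creb1 at -0.38 (SE 0.21) and Rfxap at -0.16 (SE 0.24). Irf9, the DNA-binding part of the factor that answers type I interferon, read 59.5, 67.9 and 72.8 in siDNMT1 repeats 1, 2 and 3, against 31.5, 47.9 and 29.8 in siNT repeats 1, 2 and 3. The groups did not overlap, and the log2 difference was 0.81 (SE 0.25; limma adjusted p = 1.000, and 0.367 with the repeat number as a block).

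Rfx5, a subunit of the factor that binds the X box of class I and class II promoters, read 179.9, 171 and 202 in siDNMT1 repeats 1, 2 and 3, against 104, 144 and 139 in siNT repeats 1, 2 and 3, with no overlap. Its difference was 0.51 (SE 0.19; limma adjusted p = 1.000, and 0.482 with the block). Relb, the NF-kappa-B subunit of the noncanonical pathway, read 124, 129 and 65.8 in siDNMT1 repeats 1, 2 and 3, against 54.6, 72.0 and 61.2 in siNT repeats 1, 2 and 3. Repeats 1 and 2 stood apart by 1.11 and 0.80 while repeat 3 differed by 0.09, so the groups overlapped. Over all repeats the difference was 0.67 (SE 0.27; limma adjusted p = 1.000). Without repeat 3 the fit with the block gave 0.95 with limma adjusted p = 0.0203. It was the 1 call among the 91 other pathway genes in any of the settings tried. That setting left out the repeat in which Relb differed by only 0.09. It called 266 probe sets of the array, against 23 with all repeats, so the call was not special to Relb.

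Rela, the main NF-kappa-B subunit of the canonical pathway, read 690.5, 746 and 721 in siDNMT1 repeats 1, 2 and 3, against 489, 611 and 621 in siNT repeats 1, 2 and 3, with no overlap. Its difference was 0.33 (SE 0.15; limma adjusted p = 1.000). Irf1, a factor that interferon-gamma induces and that drives Tap1 and Psmb9, differed by 0.31 (SE 0.25), positive in all 3 repeats with overlapping groups. Nlrc5, the class I transactivator, was too dim to be tested, at a mean of 12.9 in siDNMT1 and 11.7 in siNT. The receptors and kinases of interferon signalling had 1 positive and 6 negative of 7 with a median of -0.09. Jak1, a kinase shared by both interferon receptor types, differed by -0.64 (SE 0.31; limma adjusted p = 1.000) at signals near the filter.

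Class II genes, which serve presentation to CD4+ T cells and share regulators with class I, had 2 positive and 6 negative of 8 with a median of -0.20 and were mostly dim. H2-Ab1 averaged 10.7 ± 4.58 in siDNMT1 and 29.6 ± 6.54 in siNT (SD, n = 3), a difference of -1.15 (SE 0.40; limma adjusted p = 1.000). H2-Oa differed by -0.99 (SE 0.43; limma adjusted p = 1.000). The H2-Ab1 probe sets below the filter went the other way, at 0.27 and 0.22, with overlapping groups. Cd74, the invariant chain, differed by 0.19 (SE 0.22). Limma called 0 of the 8 in either fit, with 2 at an unadjusted p under 0.05, both negative, against 1025 of 27022 probe sets of the array.

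**Figure D4:**
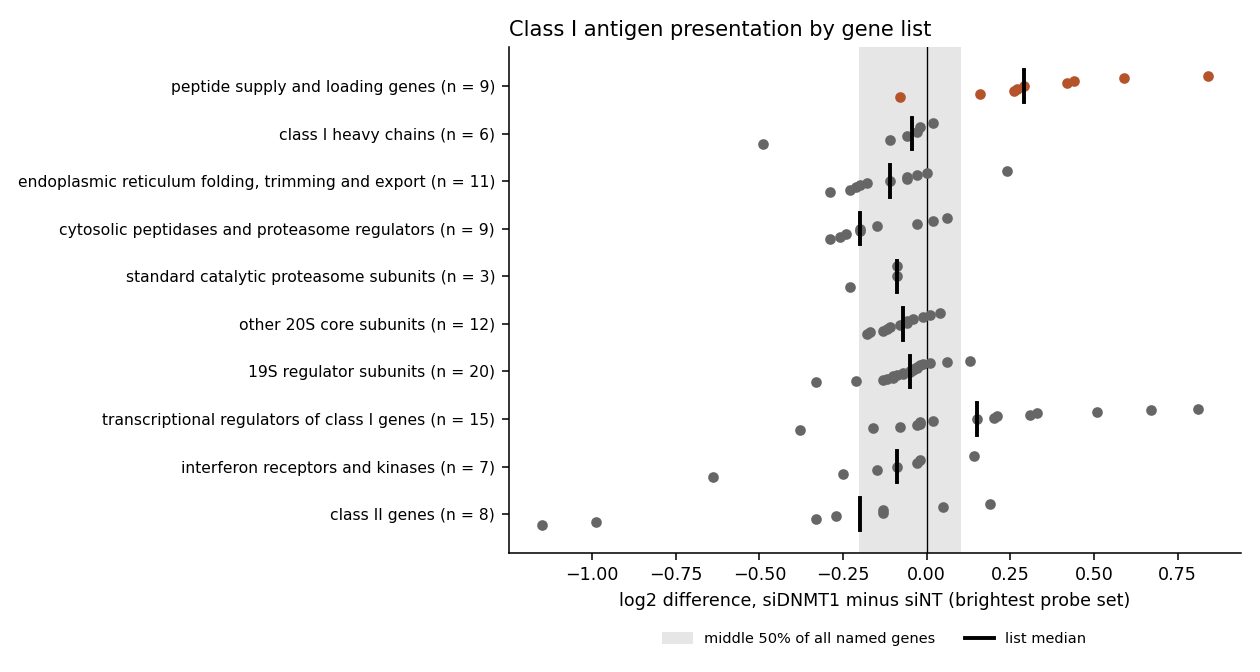
Log2 difference, siDNMT1 minus siNT, of the brightest probe set of each gene, by list, with the 9 chosen genes in red on top. Points are genes, black bars are list medians and the grey band is the middle 50% of all named genes. The chosen genes have a median of 0.29 and the transcriptional regulators 0.15, while the other lists have medians of -0.20 to -0.05.

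Over all 91 other genes of the pathway tested, 21 were positive and 70 negative with a median of -0.06, equal to that of all named genes. Trimmed mean scaling gave 45 positive and 46 negative and quantile scaling 48 and 43. The median of all tested probe sets moved as well, from -0.06 to 0.00 with the trimmed mean and -0.01 with quantiles. Quantile scaling did not shift all genes alike: H2-T3 was at -0.49 and Jak1 at -0.64 with and without it, while Hspa5 went from -0.29 to -0.16. Limma called 0 of the 91 in either fit, with 5 at an unadjusted p under 0.05, of which 3 were positive and 2 negative. Over the whole array 1025 of 27022 probe sets were at such a p.

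Psmb9, Tap1, Psmb8 and Tap2 lie next to one another in the class II part of the H2 complex, and Tapbp lies in the same complex further along chromosome 17. The 3 nearest protein-coding genes on each side of each member were examined to see whether neighbours shared the direction. Of 27 tested neighbours that are not members, 10 were positive and 17 negative, with a median of -0.10. Of the 27, 7 were higher in siDNMT1 in all 3 repeats, against 1325 of 13477 named genes (9.83%). Limma called 0 of the 27 in either fit. Against 1025 of 27022 probe sets of the array, 5 of the neighbours were at an unadjusted p under 0.05. These were Irf9 and Slc12a4, which were positive, and H2-Ab1, Fitm1 and Trim69, which were negative. Around Tapbp, Daxx differed by 0.16, Zbtb22 by -0.10, Rgl2 by -0.11, Pfdn6 by -0.09 and Wdr46 by -0.13, against 0.84 for Tapbp itself. Class II genes flank the Psmb9 to Tap2 cluster on both sides. On the Psmb9 side H2-DMa differed by -0.13 and H2-DMb2 by -0.33, and on the Tap2 side H2-Ab1 differed by -1.15 and H2-Aa by -0.27. These class II genes were dim, with group means from 10.7 (H2-Ab1 in siDNMT1) to 37.5 (H2-DMb2 in siNT).

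Around Psme1 and Psme2 the genes went different ways. Pck2, Fitm1 and Emc9 differed by -0.33, -0.90 and -0.45, while Irf9, the regulator described above, and Rec8 differed by 0.81 and 0.31. Of these, Fitm1 was dim (means of 19.6 in siDNMT1 and 40.8 in siNT), as was Rec8 (38.5 in siDNMT1 and 30.3 in siNT). Next to Psmb10, all 4 tested neighbours were positive, with Nrn1l at 0.38, Pskh1 at 0.21, Lcat at 0.67 and Slc12a4 at 1.20 (SE 0.48; limma adjusted p = 1.000), although Nrn1l, Lcat and Slc12a4 were dim. Trim69, beside B2m, was dim too. It averaged 12.3 ± 7.41 in siDNMT1 and 27.1 ± 4.67 in siNT (SD, n = 3), a difference of -0.95 (SE 0.42, limma adjusted p = 1.000).

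**Figure D5:**
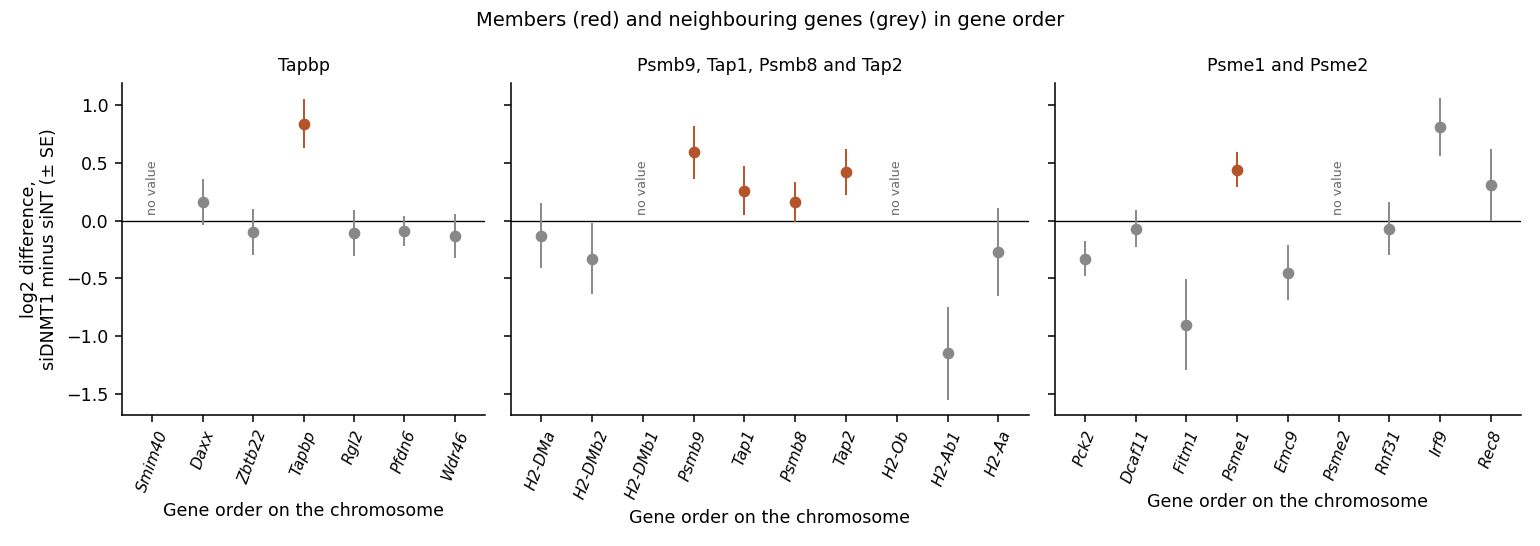
Log2 difference, siDNMT1 minus siNT, with its standard error for members (red) and neighbouring protein-coding genes (grey), in their order on the chromosome, for Tapbp, for the Psmb9 to Tap2 cluster and for Psme1 and Psme2. Genes without a tested probe set are marked as having no value. Tapbp, at 0.84, stands above flanking genes of -0.13 to 0.16, and Irf9, at 0.81, is the highest of the genes around Psme1.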

How the data were processed

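The deposited table held 1 linear intensity per probe set and array, which the authors made with GCOS, the Affymetrix operating software, per the submitters' processing notes; its version and settings were not given in the sources used here. Deposited array medians were 19.8 to 36.3, and 2% trimmed means differed by 99.8%, so each array was scaled to a common median log2 value, after which the trimmed means were 89.9 to 107. Actin 3'/5' ratios were 1.19 to 1.37 in siDNMT1 and 1.23 to 1.40 in siNT. No 2 arrays were identical. A pseudocount of 5.29, the 20th percentile of deposited values, was added before log2, so changes of dim probe sets are understated. The 64 control probe sets were left out, as were 18015 with a mean scaled signal under 16.8, the 40th percentile.

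The 27022 others were tested two-sided with limma 3.58.1 under R 4.3.3 (lmFit and eBayes, with a variance trend), with Benjamini-Hochberg adjustment over all of them at 0.05. Deviations from group means correlated at 0.173, 0.231 and 0.257 between arrays of the same repeat and at -0.179 to -0.0283 between others. Arrays of one repeat are thus paired, and the fit with the repeat as a block is given where it changes a call. Each SE in the text is from the fit without the block. With the block the SE was smaller on all 12 tested probe sets of the 9 genes. It was 0.14 for Tapbp (0.21 without), 0.12 for Psme1 (0.15 without) and 0.10 for B2m (0.14 without). For some dim genes it was larger, as for H2-Ab1 at 0.42 (0.40 without). The fits were tested on simulated data. The number of arrays limits the precision.

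Symbols came from GEO's platform annotation, which gives 1 symbol for 34945 probe sets, several for 932 and none for 9160. Of these, 34741 matched a RefSeq gene table of GRCm38.p6, which changed 0 symbols and gave coordinates and promoter sequences. The brightest probe set stood for a gene. The members, pathway lists and marker lists (corticotroph, leukocyte, dendritic cell, fibroblast, endothelial) were chosen with earlier results of these data known. The text names all members, Dnmt1, set genes of each list, up to 4 genes a list by smallest unadjusted p, and the 3 nearest coding genes on each side of a member. Of 115 listed pathway genes that are not members, 101 had a probe set and 91 were tested. The alternatives were 3 scalings, 2 pseudocounts, 2 filters, no variance trend, the block, each array or repeat left out, no _x_at or _s_at probe sets, and the mean over a gene's probe sets.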

Additional observations from a re-analysis of the deposited data

How the results depend on the processing

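Over the 20 alternatives the count of the 9 genes higher in siDNMT1 in every repeat was 7 or 8. Their median log2 difference, 0.29, was 0.35 with trimmed mean scaling, 0.36 with quantile scaling, 0.25 to 0.38 when 1 array was left out, and 0.25 to 0.40 when a repeat was. The median of all tested probe sets moved with the scaling too, to 0.00 with the trimmed mean and -0.01 with quantiles, and the members' median exceeded it by 0.32 to 0.42 throughout. Tapbp ranged from 0.60 to 1.05, Psmb9 from 0.42 to 0.74 and Psme1 from 0.34 to 0.52. Of 180 values for single genes, 177 stayed within 1 SD of the repeats, and 3, all of Psmb9, did not. That SD is the gene's own and was smallest for Psmb9 (0.11, against 0.42 for Tapbp), so the rule was strictest there. The 3 values, 0.42, 0.74 and 0.72, each came from leaving out 1 array. With a whole repeat left out, Psmb9 stayed at 0.55 to 0.65, while Tapbp at 0.60 without repeat 1 still counted as within its SD. Tapbpl alone changed sign, to 0.03 without repeat 2 in the fit with the block. The count of probe sets called, 0, was 1 with trimmed mean or quantile scaling, a filter at the 60th percentile, or no _x_at and _s_at probe sets, 2 without scaling and 23 with the repeat as a replicate block. Leaving out 1 array gave 0 to 4. With the block, leaving out repeat 1 or repeat 2 gave 41 each and leaving out repeat 3 gave 266, and the cause was not tested. Of the 91 other pathway genes 0 were called, or 1 (Relb) without repeat 3 with the block, so the range was 0 to 1. Dnmt1 passed the threshold with the block (limma adjusted p = 0.0211), also with any 1 repeat left out of that fit, and without siDNMT1 replicate 3 (-1.79, limma adjusted p = 0.0432). Over all 20 alternatives its limma adjusted p ran from 9.85e-15 to 1.000 and its difference from -1.79 to -1.17.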
